A study of Mus musculus with 6 samples.

Results

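Of the 54525 genes listed in the count tables of C2C12 cells, 151 were silent in myoblasts and expressed in myotubes. A gene was taken when it had at most 3 counts in each of the 3 myoblast libraries and at least 50 counts in each of the 3 myotube libraries. Spike-in rows, the row without a gene name and symbols beginning with Myh, Myl, Tnn, Col, Kcn, Hox or mt- were left out, and 9 further genes that met both limits were set aside for their names (among them Myh8, Myh6, Myl2, Col6a2 and Colq). The counts of myoblasts and myotubes therefore chose these genes, and their levels and folds are given as a description, without a test.

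C2C12 is an established mouse myoblast line, and all libraries came from wild-type cells of this line without another treatment. Myoblasts were sampled at day 0 (D0, n = 3) and myotubes at day 5 of differentiation (D5, n = 3), after a change from growth medium with fetal bovine serum to medium with horse serum. The labels give 3 cultured samples per day and do not say whether these came from separate passages, so the spread between libraries may be in part technical. Total RNA was sequenced, and the number of reads on each gene was deposited without normalization.

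When myoblasts differentiate they leave the cell cycle, fuse into multinucleated myotubes and assemble sarcomeres, the repeated contractile units of muscle. The basic helix-loop-helix factors MyoD and myogenin bind E-boxes (CANNTG) in regulatory sequence of muscle genes, often together with MEF2 proteins, which bind an A/T-rich site. Many muscle genes are already transcribed at a low level in proliferating myoblasts, whereas others are found only after the onset of differentiation.

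The D0 libraries held 36555048 to 40895840 counts on genes and the D5 libraries 25449759 to 25811300, so absence was assessed in the deeper libraries. A count of 3 in a D0 library corresponds to 0.0753 CPM (counts per 1000000 counts on genes after TMM scaling, mean of the 3 libraries). All 6 myotube markers, including Myog, Mymk and Ckm, were higher at D5, and the 3 myoblast markers and 4 proliferation markers were lower (edgeR's quasi-likelihood test, Benjamini-Hochberg adjusted p under 0.05). In bulk RNA, fewer cells that express a gene and less RNA per cell cannot be told apart.

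Across all genes, 42.2% of the 16290 tested were higher at D5 in edgeR's test, 40.8% were lower and 82.9% differed in either direction, and all 151 members, which passed the filter through their D5 counts, were among them because the rule required it. The members made up 0.434% of the 34809 genes with at most 3 counts in every D0 library, of which 33180 stayed at or under 3 counts in every D5 library too. They made up 1.28% of the 11755 genes with at least 50 counts in every D5 library. In the opposite direction, 35 genes had at least 50 counts in every D0 library and at most 3 in every D5 library.

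The D0 level was at the floor of the assay. Over all members together, the D0 libraries held 126, 134 and 128 counts and the D5 libraries 61087, 58538 and 58617, which was 0.237%, 0.230% and 0.228% of the counts on genes in D5 replicates 1, 2 and 3. No count was seen in any D0 library for 38 members, and the other 113 had between 1 and 9 counts over the 3 libraries. For the 38, the fold is a lower bound against 3 counts per D0 library, and the bounds ran from 27.4-fold for Chdh to 715-fold for Slc6a2. For the rest, the ratio of CPM ran from 45.2 for Gm40038 to 35269 for Cilp, with wide counting intervals (95%, exact, counting error only). The ratio exceeded 1000 for 18 genes.

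Most members were expressed at modest levels in myotubes. Their median D5 level was 5.92 TPM (transcripts per 1000000, from exonic length), beside 21.8 TPM for all genes with at least 50 counts in every D5 library, and it ranged from 0.729 TPM for Ppfibp2 to 432 TPM for Cox8b. There were 61 members at 10 TPM or more. The 10 members with the most counts held 49.1% of all member counts, and Cilp alone held 12.3%. The coefficient of variation between the D5 libraries had a median of 8.12%, beside 4.15% for all genes expressed at D5, whose median count was 788 against 141 for the members.

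Sorted by known function, each gene being placed from its name and textbook role, the 151 members comprised 20 receptor, adhesion and signalling genes, 18 extracellular matrix or secreted factors, 17 genes of excitation, calcium and ion channels, 15 metabolic enzymes and binding proteins, 13 immune or complement genes, 10 genes of the contractile apparatus and cytoskeleton, 10 of membrane transport and 6 glycosyl-, sulfo- or ADP-ribosyltransferases. Transcription and RNA regulators counted 6 genes and protein folding or turnover 3. A further 14 protein-coding genes were not placed, and 19 were non-coding or unclassified loci. By the median, the contractile genes were the highest class (30.0 TPM) and the immune genes the lowest (2.56 TPM), and levels inside most classes spread over more than a 10-fold range.

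**Figure D1:**
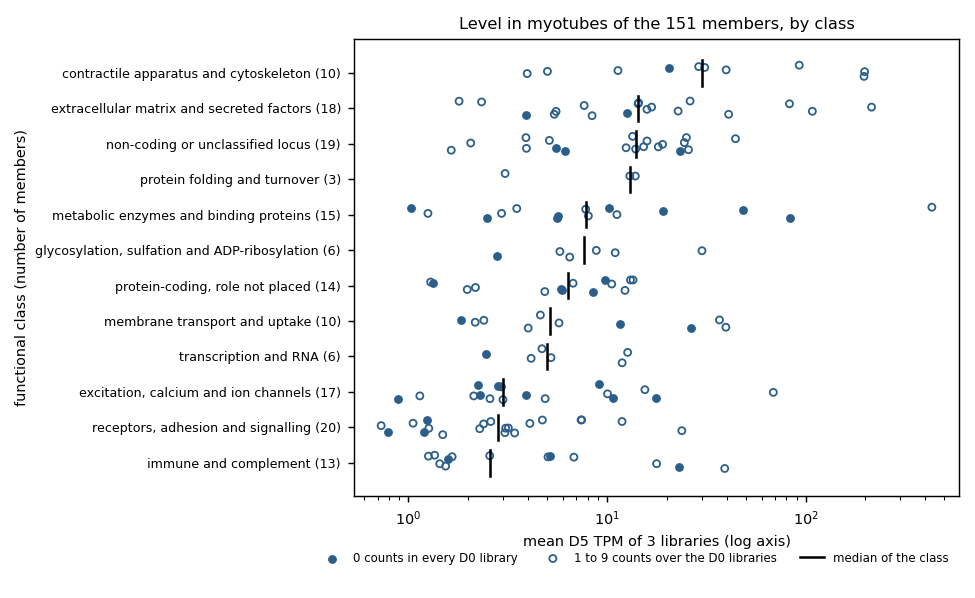
Mean D5 TPM of the 3 libraries (x axis, log scale) for each of the 151 members, grouped by functional class (y axis, with the number of members). Filled points had 0 counts in every D0 library, open points had 1 to 9 counts over the 3 D0 libraries, and black bars mark class medians, which fall from 30.0 TPM for contractile genes to 2.56 TPM for immune genes.

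The 10 members that stood highest by D5 TPM came from 4 classes. Cox8b, a muscle isoform of cytochrome c oxidase subunit 8 in the respiratory chain, reached 432 ± 30.2 TPM (SD, n = 3). It was followed by Cilp, a secreted protein of cartilage matrix, at 215 ± 17.8 TPM. Pgm5, a phosphoglucomutase relative without that enzyme activity that sits at cell junctions (aciculin), reached 198 ± 6.55 TPM. Smpx, a small protein of striated muscle, was level with it at 197 ± 4.88 TPM, within the spread of the libraries. Prelp, a leucine-rich proteoglycan, reached 108 ± 6.08 TPM. Below these came Tcap, Inmt, R3hdml, Cav3 and Ptgds, from 92.8 ± 9.17 down to 48.6 ± 1.19 TPM, of which Tcap and Inmt, and Inmt and R3hdml, differed by less than an SD of Inmt.

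The 300-base promoter windows of 7 members are shown, with the sequence around the annotated start of transcription. The members share the pattern that chose them, silent in myoblasts and expressed in myotubes. Whether they were switched on at the same time was not tested, as no stage in between was sampled. The windows shown are those of the 4 highest members, of Cav3, and of Hspb3 and Ppp1r3a, which hold a match to the MEF2 consensus. Each runs from 250 bases before to 50 bases after the annotated start, 5′ to 3′ on the gene's strand (RefSeq, GRCm38.p6). Capitals mark the palindromic E-box CAGCTG, the E-box CAGGTG on either strand, and the MEF2 consensus. The windows lie at chr7:140900397-140900696, minus strand (Cox8b), chr9:65264930-65265229, plus strand (Cilp), chr19:24861793-24862092, minus strand (Pgm5), chrX:157698723-157699022, plus strand (Smpx), chr6:112459255-112459554, plus strand (Cav3), chr13:113663627-113663926, minus strand (Hspb3) and chr6:14755225-14755524, minus strand (Ppp1r3a).
Cox8b: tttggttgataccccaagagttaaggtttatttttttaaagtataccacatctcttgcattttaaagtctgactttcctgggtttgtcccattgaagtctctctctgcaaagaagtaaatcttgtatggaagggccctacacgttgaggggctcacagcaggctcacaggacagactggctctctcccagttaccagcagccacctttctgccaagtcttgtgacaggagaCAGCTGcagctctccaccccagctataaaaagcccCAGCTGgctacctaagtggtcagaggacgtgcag
Cilp: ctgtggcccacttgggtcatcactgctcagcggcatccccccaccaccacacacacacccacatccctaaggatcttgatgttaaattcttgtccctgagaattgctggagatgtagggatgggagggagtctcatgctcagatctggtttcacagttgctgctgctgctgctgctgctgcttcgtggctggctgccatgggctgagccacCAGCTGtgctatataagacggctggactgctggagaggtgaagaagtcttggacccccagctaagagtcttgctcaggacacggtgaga
Pgm5: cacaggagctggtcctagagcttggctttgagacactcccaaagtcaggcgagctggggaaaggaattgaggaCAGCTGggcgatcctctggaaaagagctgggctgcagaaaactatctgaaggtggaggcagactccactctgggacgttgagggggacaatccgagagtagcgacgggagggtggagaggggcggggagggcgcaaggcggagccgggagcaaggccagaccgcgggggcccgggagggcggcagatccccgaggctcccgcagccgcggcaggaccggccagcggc
Smpx: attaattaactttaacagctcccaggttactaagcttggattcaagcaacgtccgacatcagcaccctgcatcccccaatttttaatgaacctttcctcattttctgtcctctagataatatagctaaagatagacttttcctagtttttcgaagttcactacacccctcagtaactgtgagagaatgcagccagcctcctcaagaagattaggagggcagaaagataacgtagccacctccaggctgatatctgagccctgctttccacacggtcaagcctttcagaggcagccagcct
Cav3: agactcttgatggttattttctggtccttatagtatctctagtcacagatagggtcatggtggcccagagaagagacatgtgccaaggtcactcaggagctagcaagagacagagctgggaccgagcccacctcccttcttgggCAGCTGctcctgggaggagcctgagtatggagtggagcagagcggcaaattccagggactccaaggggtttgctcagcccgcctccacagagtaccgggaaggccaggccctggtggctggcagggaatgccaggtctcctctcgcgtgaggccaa
Hspb3: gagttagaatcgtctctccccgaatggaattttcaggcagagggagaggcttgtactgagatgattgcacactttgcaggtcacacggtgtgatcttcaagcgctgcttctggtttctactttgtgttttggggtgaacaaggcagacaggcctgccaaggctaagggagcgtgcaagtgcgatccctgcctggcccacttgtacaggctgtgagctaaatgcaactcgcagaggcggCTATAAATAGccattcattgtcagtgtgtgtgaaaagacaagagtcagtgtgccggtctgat
Ppp1r3a: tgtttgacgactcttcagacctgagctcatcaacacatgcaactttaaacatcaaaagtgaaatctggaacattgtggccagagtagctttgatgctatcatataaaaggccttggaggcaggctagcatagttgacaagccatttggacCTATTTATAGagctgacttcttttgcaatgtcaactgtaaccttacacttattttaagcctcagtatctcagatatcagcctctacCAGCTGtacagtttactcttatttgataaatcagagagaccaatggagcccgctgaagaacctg

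Among these, the window of Cilp holds CAGCTG at position -39 from the start and that of Cav3 at position -106, whereas the window of Smpx holds none of the capitalised motifs in these letters. Hspb3 has a MEF2 match from position -12 that also contains TATAAA, and Ppp1r3a has one from position -100 with CAGCTG at position -14. The RefSeq table held a window for 113 of the 151 members, 142 windows in all, and other members are described without sequence. Both strands were searched for every motif, and the letters CAGCTG read the same on both.

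CAGCTG was present in 24.6% of the 142 member windows, in 15.5% of the windows of genes with at least 50 counts in every D5 library, in 16.0% of the windows of genes with at most 3 counts in every D0 library, and in 16.3% of all 32851 windows. CAGGTG was present on either strand in 27.5% of member windows and 20.2% of all windows. The MEF2 consensus was found in 10 member windows, which was 7.04%, beside 3.19% of all windows. Its share was 1.83% for genes expressed at D5 and 4.28% for genes silent at D0. Matches lay in genes of several classes, including Hephl1, Asb14, Limch1, Fmo2 and Abcc9 besides Hspb3 and Ppp1r3a. The CArG box consensus, bound by serum response factor, was in none of the member windows and in 1.63% of all windows. CATTCC, the MCAT element bound by TEAD factors, was on either strand in 19.7% of member windows and 14.7% of all windows. Genes expressed at D5 had it in 12.1% of windows and genes silent at D0 in 16.2%.

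In CpG content the member promoters were nearer to those of silent genes than to those of expressed genes. The ratio of observed to expected CpG was at least 0.6 in 21.8% of member windows, in 71.6% of the windows of genes expressed at D5 and in 13.5% of those of genes silent at D0. GGGCGG, the letters of a GC box, was in 38.0%, 63.4% and 18.9% respectively, and TATAAA on either strand was in 14.8%, 7.16% and 19.7%. Windows of the same gene can overlap, the members are contained in both comparison groups, and these shares were not tested. A match is a run of letters and was not examined for binding.

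**Figure D2:**
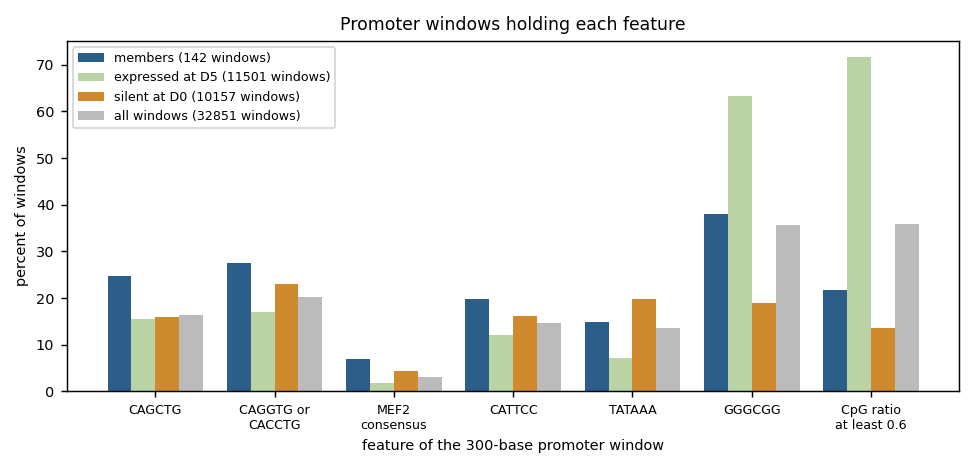
Percent of 300-base promoter windows (y axis) that hold each feature (x axis) for the members, for genes with at least 50 counts in every D5 library, for genes with at most 3 counts in every D0 library, and for all windows. Member windows hold CAGCTG in 24.6% and a CpG ratio of at least 0.6 in 21.8%, and in the CpG ratio they lie between silent genes (13.5%) and expressed genes (71.6%).

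The contractile and cytoskeletal class was led by Pgm5 and Smpx and included several Z-disc and thick filament proteins. In replicates 1, 2 and 3, the order used for all counts here, Pgm5 had 2, 3 and 2 counts at D0 and 5812, 5567 and 5852 at D5, a ratio of 3950 (interval 1917 to 9826). Smpx had 0, 2 and 3 counts at D0 and 3636, 3529 and 3615 at D5. The D5 libraries were close together for both, with a coefficient of variation of 2.03% and 0.756%. Tcap, telethonin, which caps titin at the Z-disc, went from 1, 2 and 2 counts to 652, 792 and 676. Titin itself, Ttn, was already at 178 TPM in myoblasts and rose to 633 TPM (log2 fold change 1.99, adjusted p 1.01e-28, edgeR). The titin cap was thus at the floor in myoblasts in which titin was well detected.

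Actn2, the alpha-actinin that crosslinks actin in the Z-disc, had 3, 2 and 2 counts at D0 and 1148, 1363 and 1126 at D5, or 39.8 ± 4.09 TPM. Its relatives were expressed at both days. Actn4, a non-muscle alpha-actinin, fell from 211 to 115 TPM (log2 fold change -0.72, adjusted p 7.08e-19, edgeR), and Actn3, the fast-fibre form, rose from 406 to 1771 TPM (log2 fold change 2.28, adjusted p 7.15e-32, edgeR). At D5 Actn3 was 44.5-fold above Actn2 in TPM. Mybpc2, fast myosin-binding protein C, went from 0, 0 and 2 counts to 887, 935 and 875, and its slow relative Mybpc1 rose from 0.687 to 50.4 TPM (log2 fold change 6.36, adjusted p 2.00e-32, edgeR). The Z-disc protein myopalladin, Mypn, had 2 counts in each D0 library and 523, 528 and 539 at D5. Its relative Myot had no counts at D0 and 35, 46 and 36 at D5, under the limit of 50.

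Fsd2, a protein associated with the ryanodine receptor in muscle, had no counts at D0 and 705, 619 and 651 at D5, at least 351-fold higher. The small heat shock protein Hspb3 reached 28.9 ± 1.49 TPM from at most 2 counts in a D0 library. Hspb2, its partner in muscle, was detected in myoblasts at 56.7 TPM and rose to 259 TPM (log2 fold change 2.35, adjusted p 5.84e-26, edgeR). Adprhl1 and Limch1 were the lowest of this class, at 5.01 and 3.96 TPM.

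**Figure D3:**
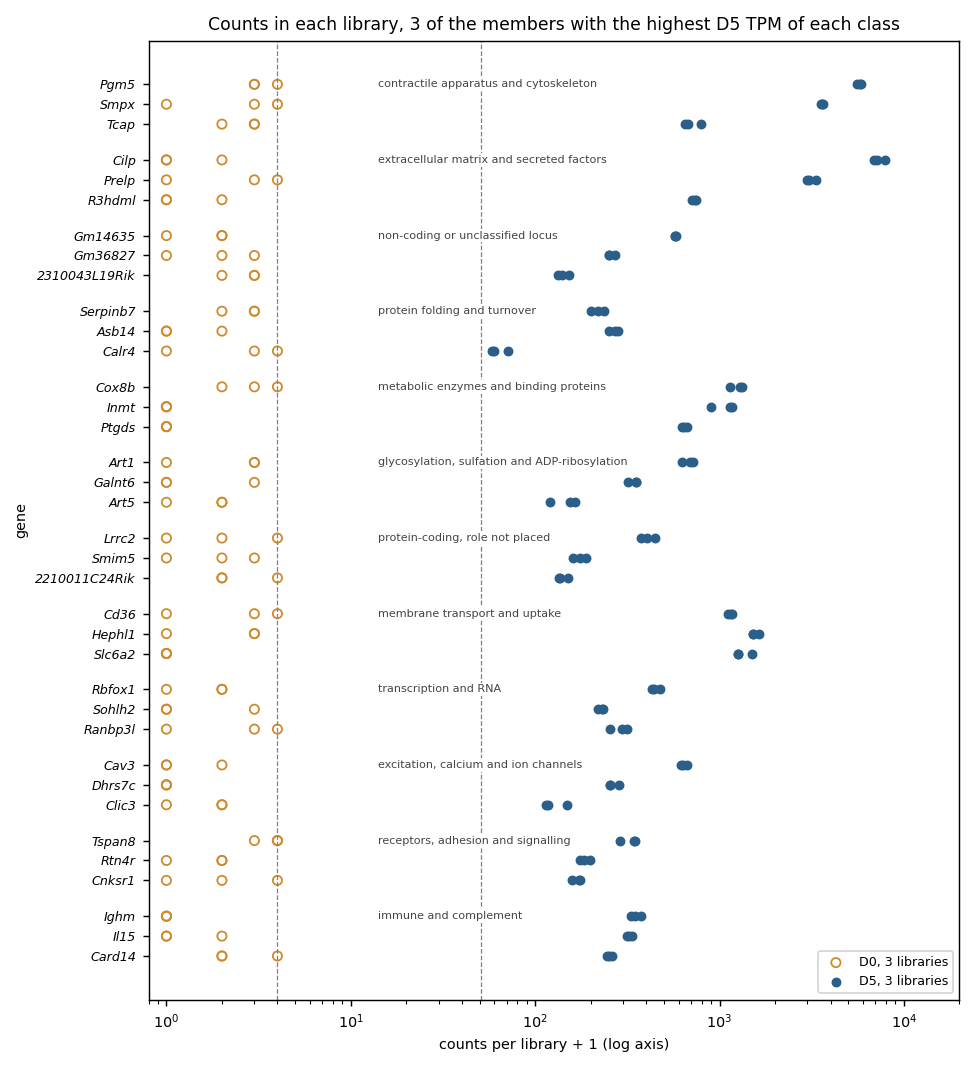
Counts plus 1 in each library (x axis, log scale) for 3 of the members with the highest D5 TPM in each functional class (y axis). Open points are the 3 D0 libraries, filled points the 3 D5 libraries, and dashed lines mark the limits of 3 and 50 counts. The rule that chose the members allows no point between these lines. Cilp, Pgm5, Smpx and Prelp lie furthest right.

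Genes of excitation, calcium handling and ion channels were many but mostly low, with a median of 2.99 TPM, and 8 of the 17 had no count in any D0 library. Cav3, the muscle caveolin of the plasma membrane and T-tubules, was the exception in level. It had 0, 1 and 0 counts at D0 and 615, 668 and 633 at D5, or 68.8 ± 2.35 TPM. Cav1, the widely expressed caveolin, rose from 11.1 to 96.0 TPM (log2 fold change 3.27, adjusted p 1.37e-31, edgeR). Dhrs7c, an enzyme of the sarcoplasmic reticulum, went from no counts to 255, 285 and 255. Cacng6, a subunit of voltage-gated calcium channels, went from no counts to 150, 145 and 139, while Cacng1, the gamma subunit of the skeletal muscle channel, was at 88.5 TPM in myoblasts and rose to 621 TPM (log2 fold change 2.97, adjusted p 9.81e-33, edgeR).

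Chrne encodes the epsilon subunit of the acetylcholine receptor, which replaces the fetal gamma subunit at the adult neuromuscular junction. It had 0, 0 and 1 counts at D0 and 145, 145 and 119 at D5, or 10.1 ± 1.16 TPM. The fetal subunit Chrng was at 11.3 TPM in myoblasts and rose to 599 TPM (log2 fold change 5.89, adjusted p 7.11e-38, edgeR). At D5 the fetal subunit was 59.6-fold above the adult one in TPM.

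Both sulfonylurea receptor genes, whose products regulate ATP-sensitive potassium channels, were members. Abcc9 had no counts at D0 and 177, 187 and 208 at D5, and Abcc8 had 3, 0 and 1 and then 80, 77 and 65. Of the pore subunits, Kcnj11 had no counts at D0 and 29, 26 and 20 at D5, and Kcnj8 had at most 8 counts in any library. The remaining channels included the sodium leak channel Nalcn (no counts, then 103, 109 and 103) and the neuronal connexin Gjd2 (at most 1 count, then 119, 118 and 101).

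Camk2b and Camk4, kinases activated by calcium and calmodulin, were both members. Camk2b lay at the D0 limit, with 3 counts in each D0 library and 223, 226 and 196 at D5, whereas its relative Camk2d was at 14.6 TPM in myoblasts and 16.7 TPM in myotubes (log2 fold change 0.35, adjusted p 1.79e-10, edgeR). In 13 of the 17 genes of this class the highest D5 CPM was in D5 replicate 2. For all members that share was 39.7%, and for all genes expressed at D5 it was 35.5%.

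Among metabolic enzymes and binding proteins, Cox8b had 3, 2 and 1 counts at D0 and 1135, 1322 and 1292 at D5, a ratio of 1003 (interval 460.2 to 2734). Its transcript is short, 360 exonic bases, so that its TPM is high for its counts. The widely expressed isoform Cox8a fell from 645 to 466 TPM (log2 fold change -0.31, adjusted p 1.05e-07, edgeR) and was 1.08-fold above Cox8b at D5. Ckmt2, the sarcomeric mitochondrial creatine kinase, had 1, 0 and 0 counts at D0 and 108, 88 and 83 at D5. Ckmt1, the ubiquitous mitochondrial form, had at most 2 counts in any library. The cytosolic form Ckm was 89.1-fold above Ckmt2 in D5 TPM.

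Ppp1r3a, the muscle glycogen-targeting subunit of protein phosphatase 1, went from no counts to 320, 285 and 336. Its relative Ppp1r3c lay just outside the D0 limit, with 0, 4 and 1 counts at D0 and 92, 64 and 72 at D5. Inmt, an N-methyltransferase of small amines, had no counts at D0 and 1164, 903 and 1138 at D5, at least 570-fold higher and 83.3 ± 11.8 TPM. The related nicotinamide N-methyltransferase Nnmt took the other direction, from 12.9 to 0.421 TPM (log2 fold change -4.75, adjusted p 2.67e-18, edgeR). Ptgds, prostaglandin D synthase, went from no counts to 627, 637 and 665.

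Several enzymes of this class are best known from liver. Ces1a, a carboxylesterase, went from no counts to 385, 316 and 336, with 18.1% of its exonic sequence shared with a locus on the other strand that had 0.281 CPM at D5. Hsd11b1, which regenerates active glucocorticoid, had 3, 0 and 0 counts at D0 and 390, 375 and 382 at D5. Hsd17b13, a protein of lipid droplets, had 0, 1 and 0 counts and then 142, 133 and 143.

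The extracellular matrix and secreted class had the largest summed D5 level of the classes, 658 CPM, of which Cilp had 294 CPM. Cilp had 0, 0 and 1 counts at D0 and 7919, 7141 and 6919 at D5, a ratio of 35269 (interval 6329 to 1393120) that rests on a single D0 count. Its relative Cilp2 rose from 0.0948 to 2.17 TPM (log2 fold change 4.64, adjusted p 1.21e-15, edgeR) and was 99.2-fold under Cilp at D5. Col6a2, set aside for its name, had a like pattern with 2, 1 and 1 counts at D0 and 6697, 6308 and 6793 at D5.

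Prelp, Lum and Fmod encode small leucine-rich proteoglycans, which bind collagen fibrils. Prelp had 2, 0 and 3 counts at D0 and 3069, 2997 and 3346 at D5. Lum (lumican) went from no counts to 301, 209 and 235, and Fmod (fibromodulin) from no counts to 115, 88 and 109. Dcn (decorin), of the same family and no member, was looked up with the members known. It had 12, 13 and 20 counts in myoblasts and rose to 6636, 5646 and 5812 (log2 fold change 9.32, adjusted p 4.25e-36, edgeR).

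Secreted factors included Fndc5, the precursor of irisin (3, 1 and 2 counts, then 334, 330 and 295), and Igfbp3, a carrier of insulin-like growth factors (3, 1 and 2 counts, then 395, 387 and 415). Chrdl1, an antagonist of bone morphogenetic proteins, went from 1, 0 and 2 counts to 790, 690 and 852. R3hdml, a predicted secreted protein, had 0, 0 and 1 counts and then 709, 733 and 743. Itgbl1, a secreted protein with integrin-like repeats, reached 41.0 ± 4.14 TPM. The matrix protease Mmp3 and the laminin chain Lama4 were lower, at 5.54 and 1.80 TPM. Tac4, a tachykinin precursor, had the widest spread of all members, with 76, 103 and 52 counts at D5 and a coefficient of variation of 33.8%.

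Cilp and Prelp are known from cartilage, and the cartilage markers were read beside them. Acan had no counts in any library, Matn1 at most 1 and Col2a1 at most 7. Comp had 0, 1 and 4 counts at D0 and 10, 3 and 9 at D5. Sox9 was expressed at both days and rose from 51.7 to 69.5 CPM (log2 fold change 0.42, adjusted p 8.33e-11, edgeR). The summed level of the 5 chondrocyte markers ran from 49.7 to 54.3 CPM at D0 and from 68.8 to 71.1 CPM at D5, nearly all of it Sox9. Its part in the level of Cilp was not tested.

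Membrane transport genes included transporters described mainly in the nervous system. Slc6a2, the noradrenaline transporter, had no counts at D0 and 1497, 1266 and 1256 at D5, at least 715-fold higher. Slc1a3, a glial glutamate transporter, went from no counts to 854, 753 and 780, at least 424-fold higher. The taurine transporter Slc6a6, of the same family as Slc6a2, was at 290 TPM at D0 and 322 TPM at D5 (log2 fold change 0.31, adjusted p 2.93e-10, edgeR), 12.1-fold above Slc6a2. The neutral amino acid transporter Slc1a5 fell from 14.2 to 7.10 TPM (log2 fold change -0.84, adjusted p 6.56e-12, edgeR), under the 11.6 TPM of Slc1a3. Of the neuron markers, Rbfox3 and Elavl4 had no counts in any library and Snap25 had at most 1, while Syn1 and Tubb3 were lower at D5. The 5 neuron markers summed to 232 to 240.4 CPM at D0 and 15.3 to 16.5 CPM at D5.

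Cd36, the fatty acid translocase of muscle and fat, had 0, 3 and 2 counts at D0 and 1171, 1146 and 1111 at D5, or 39.7 ± 1.43 TPM. Cpt1b, the muscle form of the mitochondrial carnitine palmitoyltransferase, did not accompany it and fell from 17, 17 and 26 counts to 2, 8 and 7 (log2 fold change -1.12, adjusted p 0.0116, edgeR). The fat markers Adipoq, Lep and Plin1 had at most 1 count in any library, and Pparg was lower at D5. The 5 fat markers summed to 18.3 to 20.3 CPM at D0 and 6.99 to 8.40 CPM at D5. Hephl1, a copper-dependent ferroxidase, had 2, 0 and 2 counts at D0 and 1514, 1642 and 1509 at D5. The cholesterol exporter Abcg1 and the lipid transporters Abca8a and Abca9 were lower, between 2.17 and 4.01 TPM.

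Receptors, adhesion and signalling genes formed the most numerous class, with a median of 2.83 TPM. Tspan8, a tetraspanin, led it with 3, 3 and 2 counts at D0 and 287, 341 and 348 at D5. Rtn4r, the Nogo receptor, went from 1, 0 and 1 counts to 198, 173 and 184. Pid1, a regulator of insulin signalling, went from 0, 1 and 0 to 505, 462 and 488. Itga1, the collagen-binding integrin alpha 1 chain, was low at 1.05 TPM, while its partner chain Itgb1 was abundant at both days and fell from 1424 to 743 TPM (log2 fold change -0.78, adjusted p 1.42e-19, edgeR). The receptors for prostaglandin F (Ptgfr), adenosine (Adora1) and ligands of the glial neurotrophic family (Gfra2) all lay under 4 TPM.

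The 82, 68 and 57 D5 counts of Adora1 have a limit of their own. It shares 20.1% of its exonic sequence with Mybph on the other strand, and Mybph went from 3.61 to 1393 CPM. The strand setting of the counting is not given in the sources used here, so reads of the pair cannot be told apart. Exonic sequence shared with another gene was found for 39 members and exceeded 50% for none. Card14 (20.7% with Sgsh) and 2310043M15Rik (28.0% with Dop1b) also lie over an expressed gene. Sgsh was at 9.01 CPM at D0 and 20.8 CPM at D5, and Card14 had 1, 3 and 1 counts at D0. Dop1b was at 25.5 CPM at D0 and 58.1 CPM at D5, and 2310043M15Rik had 0, 0 and 2 counts at D0. Art1 shares 36.5% with Chrna10, which had 0.0540 CPM at D5. The whole span of 14 members lay inside another gene, on the same strand for 5 of them, and for 3 of these 5 the host was above 1 CPM at D5. Gm37014 lies in Cacna1s (0.343 CPM at D0 and 346 CPM at D5), Gm15583 in Brinp3 (0.443 and 152 CPM) and Gm37626 in Gulp1 (0.373 and 49.9 CPM). Reads from introns of the host cannot be told apart from reads of these 3 loci. Other members lie inside a gene on the other strand, among them Gm47523 in Cap2 (0.303 and 184 CPM) and Mir133a-1hg in Mib1 (241 and 339 CPM). With the strand setting unknown, reads of Cap2 cannot be set apart from reads of Gm47523. Mir133a-1hg had 0, 0 and 1 counts at D0, where Mib1 was at 241 CPM. The part of Mib1 in the D5 counts of Mir133a-1hg was not tested.

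Immune and complement genes were present while most markers of macrophages were at or near 0 counts. Ighm, the constant region of the immunoglobulin mu heavy chain, had no counts at D0 and 345, 372 and 330 at D5. The leukocyte marker Ptprc had at most 1 count in any library, Adgre1 had none, and Csf1r had at most 5. Cd68, which other cells also express, fell from 3.15 to 2.22 CPM (log2 fold change -0.50, adjusted p 0.00299, edgeR). The 4 macrophage markers summed to 3.16 to 3.39 CPM at D0 and 1.85 to 2.64 CPM at D5.

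The cytokine Il15, described as a factor released by muscle, had 0, 1 and 0 counts at D0 and 314, 320 and 333 at D5. Il12a, a subunit of interleukins of immune cells, went from no counts to 86, 64 and 62. In this class, 8 of the 13 genes had their highest CPM in D5 replicate 1, beside 37.7% of all members and 33.8% of all genes expressed at D5. The summed level of the class was 184 CPM in that replicate and 159.8 and 160.4 CPM in the others. The lower genes of the class ran from Card14 at 6.81 TPM to Sp100 at 1.26 TPM.

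Transferases that modify proteins with sugars or ADP-ribose were led by Art1, the muscle ecto-ADP-ribosyltransferase. It had 2, 0 and 2 counts at D0 and 690, 719 and 624 at D5, or 30.1 ± 2.24 TPM. Art5, its neighbour, had 1, 0 and 1 and then 163, 120 and 154. The 2 genes overlap on opposite strands of chromosome 7. Galnt6 and Galnt5, which start O-linked glycans, reached 11.0 and 2.80 TPM.

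Among the members were 6 regulators of transcription or RNA. Rbfox1, a splicing factor of muscle, heart and neurons, had 1, 0 and 1 counts at D0 and 476, 438 and 430 at D5, or 12.7 ± 0.840 TPM. Its relative Rbfox2 was at 196 TPM in myoblasts and 207 TPM in myotubes (log2 fold change 0.24, adjusted p 5.40e-08, edgeR), 16.3-fold above Rbfox1. Sohlh2, a helix-loop-helix factor of germ cells, went from 0, 2 and 0 counts to 232, 229 and 217. The forkhead factor Foxf1 and the nuclear receptor Nr1h5 were low, at 4.15 and 2.45 TPM. In protein turnover, Asb14, an adaptor of ubiquitin ligases, went from 0, 0 and 1 counts to 269, 280 and 250.

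Of the 14 protein-coding genes not placed by role, Lrrc2 was the highest, with 3, 1 and 0 counts at D0 and 404, 443 and 376 at D5. Smim5, 2210011C24Rik and Prr32 followed, between 13.1 and 10.6 TPM. Tekt5, a filament protein of the sperm tail, had no counts at D0 and 135, 156 and 133 at D5. Tmem176b went from no counts to 161, 167 and 157. Among these 14 genes, 10 had their highest CPM in D5 replicate 2, beside 39.7% of all members and 35.5% of all genes expressed at D5.

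The 19 non-coding or unclassified loci had a median of 13.9 TPM, above that of most protein-coding classes. Some are short, as with Mir133a-1hg (395 exonic bases), Gm47523 (471) and Gm48395 (486), so that their TPM is high for their counts. Summed over the class, the D5 level was 135 CPM. It was 658 CPM for the extracellular matrix and secreted class and 105 CPM for excitation, calcium and ion channels. Gm14635, on chromosome X, had 0, 1 and 1 counts at D0 and 580, 570 and 573 at D5, or 44.3 ± 0.888 TPM. Mir133a-1hg, the host transcript of a muscle microRNA, went from 0, 0 and 1 counts to 76, 75 and 82. By annotation the members held 131 protein-coding genes (86.8%, beside 93.3% of genes expressed at D5), 7 antisense transcripts, 6 lincRNAs and 7 of other kinds. Srrm4os and Gm13398 followed Gm14635 in counts, at 488, 470 and 440 and at 473, 371 and 392. Mature microRNAs were not measured.

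There were 10 pairs of members within 100 kb of each other. They included Gm37829 and Fsd2 (786 bases apart on the same strand), Abca8a and Abca9 (4770 bases), Clic3 and Ptgds (7932 bases), Slc6a2 and Ces1a (18546 bases) and Nalcn and Itgbl1 (32826 bases). The D5 levels lay close in some pairs, as with Abca8a at 2.17 and Abca9 at 2.40 TPM or Slc6a2 at 26.6 and Ces1a at 19.2 TPM. They lay far apart in others, as with Nalcn at 0.889 and Itgbl1 at 41.0 TPM. The members were spread over 20 chromosomes.

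Members were set beside related genes, in pairs chosen with the members known. A related gene here is a family relative or a partner in function, as with Cpt1b for Cd36, Kcnj8 for Abcc9 and Ttn for Tcap. The counts of pairs below are therefore not counts of family relatives alone. Of the 28 related genes, 22 had more than 3 counts in some myoblast library, and 2 (Art5 and Fmod) were themselves members. The related gene had the higher mean TPM at D5 in 17 pairs, among them those of Chrne, Cacng6, Camk2b, Hspb3 and Rbfox1. The member had the higher mean in the other 11, among them Inmt, Cilp, Slc1a3, Cd36, Abcc9 and Mypn. Cox8a and Cox8b were nearly level at D5, at 466 ± 23.8 and 432 ± 30.2 TPM.

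**Figure D4:**
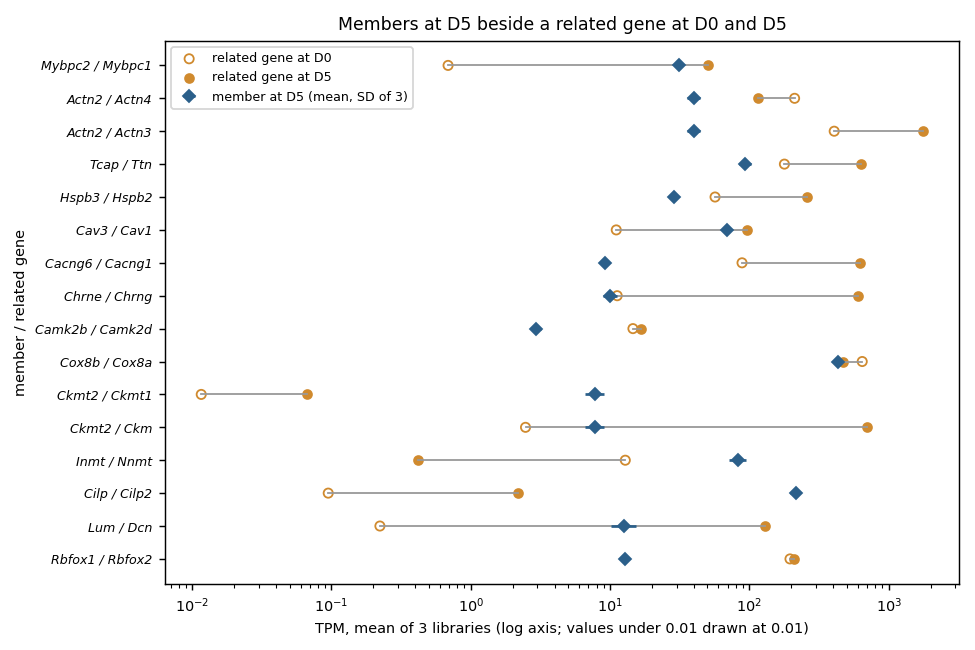
TPM (x axis, log scale) of 14 members at D5 (diamonds, mean and SD of 3 libraries) beside related genes at D0 (open circles) and D5 (filled circles, means of 3 libraries). Chrng lies 59.6-fold above Chrne and Actn3 44.5-fold above Actn2, and Cilp2 lies 99.2-fold under Cilp.

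To place the members among known muscle genes, 6 lists of 164 genes were read, which were chosen with earlier results of these data known. Of the 164, 13 were members, 120 others were higher at D5, 12 were lower and 6 had no call. A further 12 were not tested for low counts, and Colq was set aside for its name. Across all 54525 genes, 0.277% were members, and of the 11755 genes with at least 50 counts in every D5 library 1.28% were. Of the 16290 genes tested, 42.2% were higher at D5 in edgeR's test. The shares in the lists were not tested against these. The 120 had a median D0 level of 6.13 CPM, and 16 of them had at most 10 counts in every D0 library. Most genes of these lists thus rose from a level that was already detected. The median log2 fold change of the tested non-members was 2.16 for the sarcomere list, 4.15 for excitation-contraction coupling, 1.87 for the neuromuscular junction, 4.24 for energy metabolism, 4.77 for ubiquitin ligase adaptors and 1.00 for regulators and fusion, beside 0.0022 for all genes tested.

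The sarcomere list gave 4 members of 54 (Actn2, Mybpc2, Tcap and Smpx) and the excitation-contraction coupling list 4 of 29 (Cacng6, Dhrs7c, Cav3 and Sypl2). Energy metabolism gave 3 of 25 (Ckmt2, Ppp1r3a and Cox8b), the ubiquitin ligase adaptors 1 of 22 (Asb14) and the neuromuscular junction 1 of 17 (Chrne). None of the 17 myogenic regulators and fusion genes was a member, and 11 of them were higher at D5. The listed non-member with the largest log2 fold change was the muscle sodium channel Scn4a, which missed the D0 limit by 1 count in 1 library, with 1, 4 and 3 counts at D0 and 4212, 4440 and 4303 at D5 (log2 fold change 11.26, adjusted p 3.86e-37, edgeR). Jam2, an adhesion molecule of myoblast fusion, had the largest fall among the listed genes (log2 fold change -1.97, adjusted p 3.58e-29, edgeR).

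The 5 heart muscle markers did not move together. Nppa had at most 2 counts in any library. Nppb, a natriuretic peptide, fell from 56, 75 and 50 counts at D0 to 2, 7 and 4 at D5 (log2 fold change -3.09, adjusted p 1.32e-09, edgeR). Tnni3, the heart form of troponin I, rose from 17, 25 and 29 counts to 48, 45 and 40 (log2 fold change 1.58, adjusted p 1.82e-07, edgeR). Myh6, set aside for its name, had 0, 1 and 0 counts at D0 and 584, 719 and 690 at D5. Tnnt2, which embryonic skeletal muscle also expresses, rose from 25.2 to 2124 CPM (log2 fold change 6.40, adjusted p 1.12e-38, edgeR). The summed level of the 5 ran from 27.0 to 27.7 CPM at D0 and from 2009 to 2256 CPM at D5, most of it Tnnt2.

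**Figure D5:**
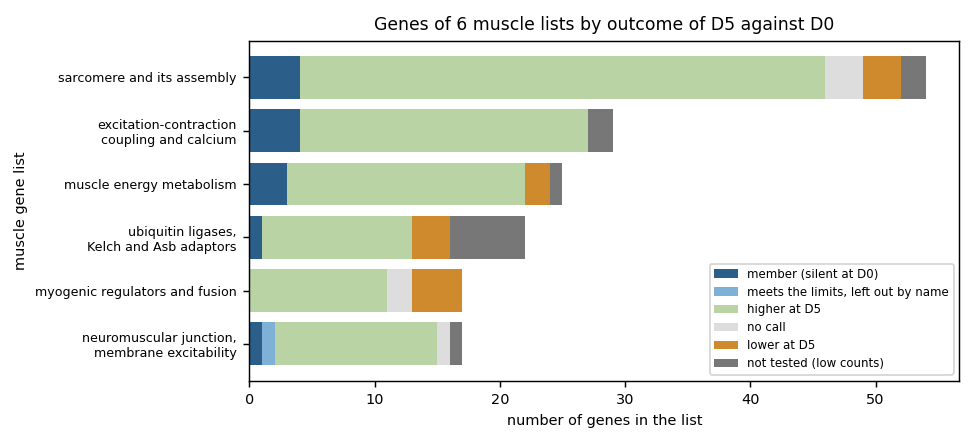
Number of genes (x axis) in each of 6 muscle gene lists (y axis), split into members, genes set aside for their names, genes higher, without a call or lower at D5, and genes not tested for low counts. Members are 4 of 54 sarcomere genes, 4 of 29 excitation-contraction coupling genes and 0 of 17 regulators.

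Near the limits, membership turned on a few counts. Nr1h5 (54, 63 and 50 at D5), Chdh, Gm40038 and Myadml2 lay just inside the D5 limit, and Gm6093 (68, 49 and 66), Htr7, Mrvi1, Wnt5a and Adh1 just outside. Camk2b, Adprhl1, Tspan8, Abcg1 and Actn2 lay just inside the D0 limit, and Adgrl4 (4, 1 and 0 at D0), Asprv1, Ppp1r3c, Bcl3 and Ch25h just outside. With the D5 limit met, 24 genes had 4 as their highest D0 count and 146 had 4 to 10. With the D0 limit met, 94 genes had a lowest D5 count from 25 to 49. Far from the limits, 11 members had at least 1000 counts in every D5 library.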

How the data were processed

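RNA-seq counts of 3 D0 and 3 D5 C2C12 libraries were used. The authors deposited raw counts per gene, made with featureCounts on GRCm38 without normalization. The aligner is Tophat2 by the labels and HISAT2 by the paper's methods, a difference that was not resolved. The annotation release and strand setting are not given in the sources used here. The 92 spike-in rows and an unnamed row equal to its column's total were left out of library sizes. GENCODE M21 (GRCm38) gave exonic length and position for 99.9% of 54525 genes.

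CPM, TMM factors and tests were computed with edgeR 4.0.16 (R 4.3.3, filterByExpr, glmQLFTest, Benjamini-Hochberg, threshold 0.05), TPM from union exonic length. Of the steps, only the edgeR test was tried on simulated counts. Chi-square per degree of freedom between replicates was 2.23 to 3.55, above sampling noise. Members, classes and gene lists were chosen with earlier results of these data known. Named genes are the 10 members with the highest D5 TPM, up to 4 per class, up to 10 without a placed role, 5 on each side of each limit, members with a related gene, and the extremes of the lists. Other members were named after their values were seen, and a few that the rule selects are not reported here. Promoter windows came from RefSeq (GRCm38.p6), and the first 25 bases after the start were found within the first 600 bases of a GENCODE transcript of the gene for 100 of 142 windows. Alternatives were other count limits, TMM-scaled limits, each library left out, DESeq2 1.42.0, total counts, no filter and a replicate block.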

Additional observations from a re-analysis of the deposited data

Results flagged for a closer look

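The ERCC spike-ins, synthetic RNAs outside the comparison of genes, took 1.20% of the counts in D5 replicate 1 and 2.09% in D5 replicate 3, above the highest D0 library at 0.859%, while D5 replicate 2 was at 0.720%. The share of gene counts on the 151 members did not follow this, being 0.237%, 0.230% and 0.228% in D5 replicates 1, 2 and 3. The groups hold 3 libraries each, so no single library was tested as an outlier.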

How the results depend on the processing

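The number of members moved with the count limits. It was 38 with 0 counts required in every D0 library, 297 with at most 10, 245 with at least 25 counts in every D5 library and 92 with at least 100. With limits on TMM-scaled counts it was 175, and leaving out 1 library gave 153 to 174. All 151 were kept in each case, which was fixed in advance. Leaving out a library only removes a condition of the rule. The scaling lowered the counts of every D0 library and raised those of every D5 library. The genes differing between D5 and D0 numbered 13510, with 13431 in DESeq2, 13536 with total counts, 15274 without a filter and 13236 to 13599 with 1 library left out. With the replicate block there were 13558. Same-numbered libraries had deviations correlated at 0.0329, 0.0645 and 0.0277, each highest with its own number but too low to treat the samples as paired, and the block moved no count of calls by more than 1.5 times. In the muscle lists 119 to 128 non-members (Colq included) were higher over all alternatives. Of 265 alternative D5 levels of 53 named members, 261 moved by less than the replicate SD and the largest shift was 13.2%. Leaving out 1 of 3 libraries cannot move a mean by a full SD, so only the other scalings could do so. The 4 levels that moved further, of Cd36, Gm14635, Pgm5 and Smpx, did so with total counts alone. The floor of 3 counts per D0 library limits each fold, and a silent gene here is one not detected at this depth.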
